A study of Mus musculus with 9 samples.

Results

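Integrins, laminins and the proteins that tie them together were followed as transcripts in 9 mouse mammary tumours, where the models HR1, LM1 and LM9 gave 3 tumours apiece. The group was taken by name from the 14108 genes listed in the counts. It holds every gene named as an integrin α chain (Itga and a number, or Itgav), an integrin β chain (Itgb1 to Itgb8) or a laminin chain, and 5 linkers, *Hspg2*, *Agrn*, *Nid1*, *Nid2* and *Dag1*. This gave 36 genes, of which 13 encode integrin α chains, 8 integrin β chains, 10 laminin chains and 5 linkers. No measured value entered the choice. The leukocyte chains with letter names (*Itgal*, *Itgam*, *Itgax*, *Itgae*) are not among the 36.

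Integrins are cell surface receptors made of an α and a β chain, and the pair decides which matrix protein is held. Laminins are trimers of an α, a β and a γ chain and form the sheet of the basement membrane on which mammary epithelium rests. Integrins α3β1, α6β1, α6β4 and α7β1 and the dystroglycan complex bind laminins, integrins that contain αv and integrin α5β1 bind the RGD motif of fibronectin, vitronectin or latent TGFβ, and α1β1, α2β1, α10β1 and α11β1 bind collagens. Perlecan (*Hspg2*), agrin (*Agrn*) and the nidogens (*Nid1*, *Nid2*) join laminin to type IV collagen or to the cell.

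HR1 (LB-mHR1) is a non-metastatic mammary cancer line from a tumour of a transgenic mouse with *PIK3CA* H1047R under the CAG promoter, and it was established from cells sorted for GFP. LM1 and LM9 are lines grown out of lung metastases of HR1 cells that carried a doxycycline-inducible *piggyBac* transposon, and they are the models with high *Nfib*, a gene for a transcription factor of the nuclear factor I family. The mutant allele and GFP are therefore common to the 3 models, whereas the study uses the name HR1 for the parental line and HR1.PB for the cells with the transposon. For each tumour 250000 cells in Matrigel were placed in the mammary fat pad of a female NOD.CB17-Prkcd<scid>/J (NOD/SCID) mouse aged 4 to 8 weeks, tumours were taken before 1500 mm3, and GFP-positive cells were sorted for RNA. Each model is 1 line, so the 3 tumours of a model repeat the injection and not the derivation of the line. These hosts lack T and B cells and keep myeloid cells, vessels and stroma. In such a bulk sample, fewer cells of a type and less RNA per cell cannot be told apart.

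The tables summed to between 32393958 and 46681945 counts per tumour. Levels are given as CPM, counts scaled by TMM factors to a library of 1000000 counts, and a gene was called where the edgeR quasi-likelihood F-test gave an adjusted p under 0.05 over the 14086 genes tested, among which were all 36. *Nfib*, the check of the labels, stood at 420.6 to 791 CPM in the 6 LM tumours, at 23.9 and 18.3 CPM in HR1 replicates 2 and 3, and at 1343 CPM in the library labelled HR1 replicate 1. That library goes against the low *Nfib* of its model. It correlated with HR1 replicates 2 and 3 at r = 0.891 and 0.878 across genes, where those 2 correlated at 0.961, so the fold changes of integrin, laminin and linker genes in LM1 and LM9 together are given with and without it. The labelled mammary carcinoma cells carried little luminal epithelial RNA. Krt8, Cldn3, Cldn4 and Cldn7 are not among the genes listed, and *Epcam*, *Cdh1*, *Krt18* and *Krt19* summed to between 1.83 and 5.89 CPM in every tumour.

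In LM1 and LM9 together against HR1, 5 of the 36 genes rose (*Itga6*, *Itga7*, *Itga9*, *Itgb6* and *Lama3*) and 14 fell. The fallen genes were *Itga1*, *Itga10*, *Itga2b*, *Itgb3*, *Itgb4*, *Itgb5*, *Itgb7*, *Itgb8*, *Lama2*, *Lama4*, *Lamb2*, *Lamc3*, *Agrn* and *Nid2*. Of all genes tested, 19.9% were higher and 23.6% lower. The median log2 fold change was −0.52 over the 36 and −0.05 over all genes tested. By kind, 3 α chains rose and 3 fell of 13, 1 β chain rose and 5 fell of 8, and 1 laminin chain rose and 4 fell of 10. No linker rose and 2 fell of 5. The β chains had the lowest median of the 4 kinds, at −2.63. Without the library labelled HR1 replicate 1, 5 rose and 21 fell, beside 27.5% and 28.5% of all genes, and 18 genes were called the same way in both fits.

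Taken 1 model at a time against the same 3 HR1 tumours, LM1 had 5 genes higher and 13 lower (16.7% and 18.7% of all genes), with a median of −1.24. LM9 had 5 higher and 8 lower (20.4% and 21.9% of all genes), with a median of −0.25. Without the library labelled HR1 replicate 1 these became 6 and 21 in LM1 (26.9% and 26% of all genes) and 10 and 15 in LM9 (27.9% and 27.8%). Counted by whether all 6 LM tumours lay beyond all 3 HR1 tumours, 5 genes were higher and 8 lower (15.6% and 14.3% of all genes). The exact permutation test of CPM, two-sided over 6 against 3 tumours, gave each of these 13 genes p = 0.0238, the smallest it can give. Genes picked by this separation must reach that value, so the test adds nothing to the count. For the other genes called in both models together, the exact permutation test gave p = 0.0714 for *Itgb3* and p = 0.0952 for *Itga10*. The exact permutation test gave p = 0.167 for *Itgb4* and *Itga2b*, p = 0.333 for *Itgb7* and p = 0.69 for *Agrn*.

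**Figure D1:**
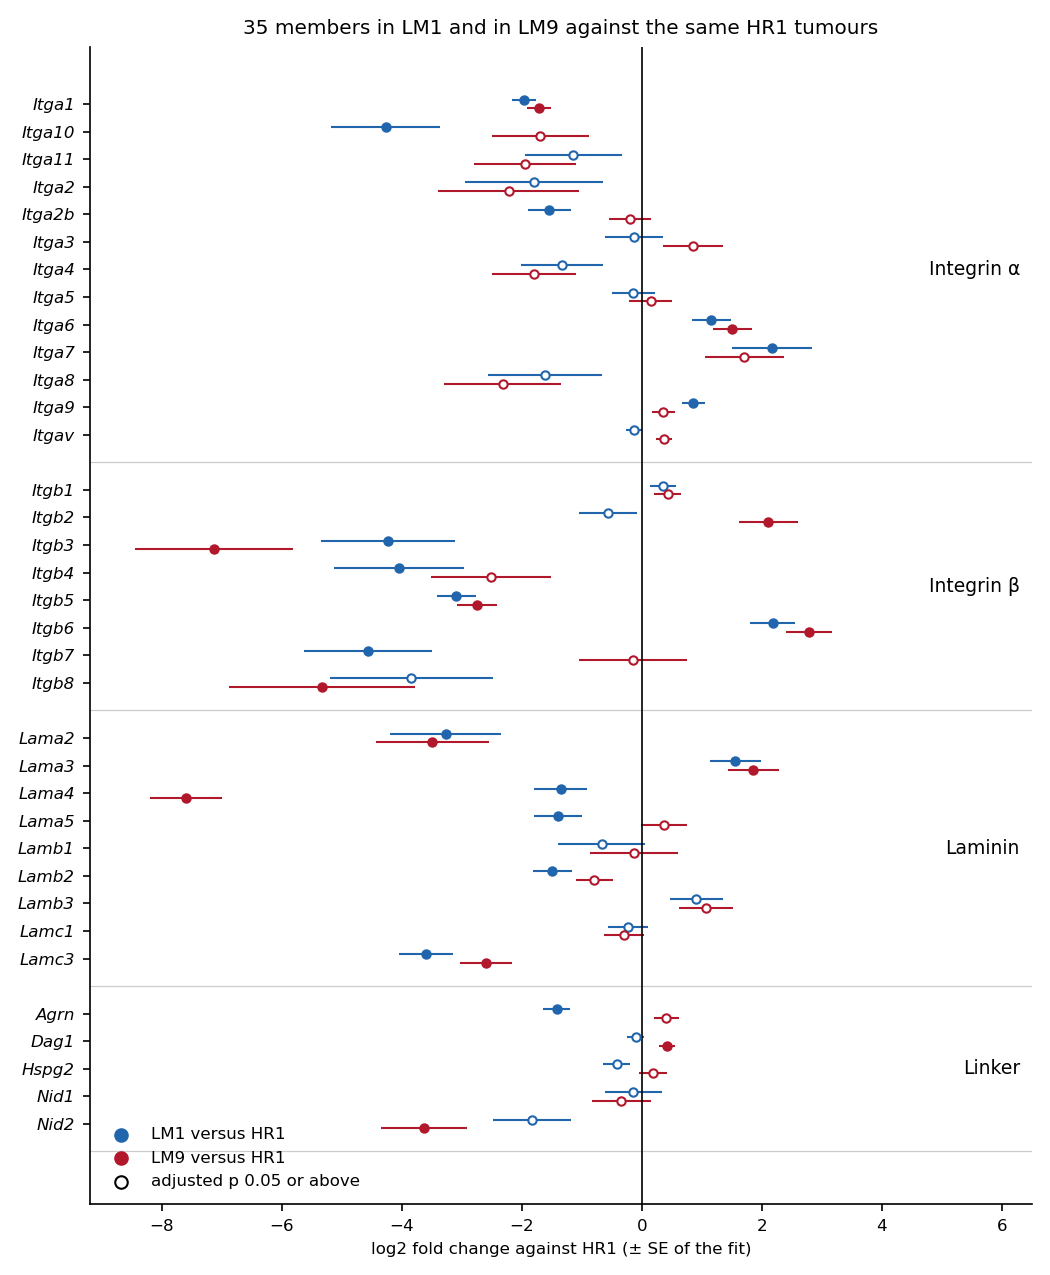
Log2 fold change (horizontal axis, points, with the SE of the fit as bars) of 35 of the genes in LM1 (blue) and LM9 (red) against the same 3 HR1 tumours; filled points have an adjusted p under 0.05. *Itgb3*, *Itgb5*, *Itgb6*, *Itga6*, *Itga1*, *Lama2*, *Lama3*, *Lama4* and *Lamc3* lay on the same side of 0 with filled points in both models, and *Lama4* had a log2 fold change of −1.35 in LM1 and −7.60 in LM9.

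The β chains that pair with αv changed in different directions. *Itgb5* encodes β5, which with αv binds vitronectin, *Itgb6* encodes β6, an epithelial chain that with αv releases active TGFβ, *Itgb8* encodes β8, a further αv partner that acts on latent TGFβ, and *Itgb3* encodes β3, the chain of αvβ3 and of the platelet integrin αIIbβ3. Because *Itgb5* and *Itgb8* fell and *Itgb6* rose, the 250 bases before their start sites are shown for these partners of αv. They are taken from the RefSeq promoter table (GRCm38.p6, the build of the counts), written in the direction of the gene, with each match to the nuclear factor I half-site TTGGC on either strand in capitals. The windows are chr16:33829415-33829664 on the plus strand for *Itgb5*, chr2:60722604-60722853 on the minus strand for the outer start of *Itgb6*, and chr12:119238277-119238526 on the minus strand for *Itgb8*.

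Itgb5: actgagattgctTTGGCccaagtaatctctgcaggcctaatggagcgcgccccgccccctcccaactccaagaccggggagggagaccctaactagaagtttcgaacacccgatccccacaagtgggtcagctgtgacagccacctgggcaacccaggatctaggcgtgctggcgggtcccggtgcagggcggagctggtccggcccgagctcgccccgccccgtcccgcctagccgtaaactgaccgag

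Itgb6: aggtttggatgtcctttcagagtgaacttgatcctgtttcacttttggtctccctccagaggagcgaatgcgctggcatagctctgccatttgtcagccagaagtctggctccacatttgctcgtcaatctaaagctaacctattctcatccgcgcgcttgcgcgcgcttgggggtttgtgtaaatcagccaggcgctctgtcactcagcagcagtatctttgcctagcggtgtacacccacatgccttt

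Itgb8: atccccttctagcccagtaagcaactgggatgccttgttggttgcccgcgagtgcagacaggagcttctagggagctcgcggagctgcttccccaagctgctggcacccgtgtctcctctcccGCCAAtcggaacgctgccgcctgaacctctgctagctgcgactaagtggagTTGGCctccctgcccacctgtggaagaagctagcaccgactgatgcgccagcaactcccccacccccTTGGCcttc

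The window of *Itgb5* held 1 half-site and that of *Itgb8* held 3, while that of *Itgb6* held none. These letters are common, since 41.5% of the 32851 windows of this length in the table held a half-site. Of the 30 windows found for 25 of the 36 genes, 13 held it. The full nuclear factor I palindrome, 2 half-sites that face each other with 5 bases between, was in 0.0365% of all windows and in none of the 30. The AP-1 letters TGACTCA were in 4.46% of all windows and likewise in none of the 30. These matches describe letters and not binding.

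*Itgb5* (chr16:33829665-33949338) stood at 192.5, 504 and 486 CPM in HR1 replicates 1, 2 and 3. It was at 46.7, 45.6 and 47.0 CPM in LM1 and at 60.3, 55.4 and 59.8 CPM in LM9. Each LM tumour lay far under each HR1 tumour, and the LM tumours of a model were within a few CPM of each other. *Itgb5* fell by 2.92 ± 0.26 on the log2 scale (SE, adjusted p = 1.1e-04) in LM1 and LM9 together, 7.57-fold, and the log2 fold change was −3.24 without the library labelled HR1 replicate 1.

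*Itgb6* was at 1.496, 1.82 and 3.94 CPM in HR1, at 11.95, 12.8 and 8.28 CPM in LM1 and at 16.5, 15.9 and 18.1 CPM in LM9. The groups did not overlap, and the level in the library labelled HR1 replicate 1 was the lowest of the 9. *Itgb6* rose by 2.49 ± 0.35 (log2, SE, adjusted p = 8.0e-04), and by 2.25 without that library (adjusted p = 2.4e-04).

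*Itgb8* was at 0.266, 1.94 and 0.823 CPM in HR1, which is 8, 86 and 32 counts. The LM1 tumours had 0, 9 and 0 counts and the LM9 tumours 0, 3 and 0. It was low in every tumour and lowest in the LM models. Against a floor of 3 counts per library, the HR1 mean was at least 15.1-fold higher than LM9 (at least 8.15-fold without HR1 replicate 2, the highest), with an adjusted p = 0.0234 for LM9 and 0.0556 for LM1. In both models together the log2 fold change was −4.58 (adjusted p = 0.0106), and it was still called at −3.70 without HR1 replicate 2, −6.87 without LM1 replicate 2 and −6.12 without LM9 replicate 2. Both models were called lower without the library labelled HR1 replicate 1 (adjusted p = 0.0045 and 0.0108).

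*Itgb3* (chr11:104608000-104670476) was at 0.964, 41.7 and 11.4 CPM in HR1, at 0.588, 0.974 and 1.32 CPM in LM1 and at 0.172, 0.160 and 0.0450 CPM in LM9, the last from 8, 7 and 2 counts. The library labelled HR1 replicate 1 sat among the LM1 tumours, so the groups overlapped. *Itgb3* fell by 5.68 ± 0.91 on the log2 scale (SE, adjusted p = 0.00159) with all tumours, and the log2 fold change was −6.24 without that library (adjusted p = 1.3e-05) and −4.14 without HR1 replicate 2 (adjusted p = 0.00456). The permutation test, which is exact, gave p = 0.0714.

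*Itgav* itself, the shared α chain, differed little. It was at 140.3, 124 and 147 CPM in HR1, 118, 144 and 113 CPM in LM1 and 163, 179 and 192 CPM in LM9. The LM9 tumours were the highest of the 9, and the LM1 tumours overlapped HR1. Its log2 difference from HR1 was 0.12 ± 0.12 in both LM models together (SE, adjusted p = 0.453), and 0.14 without the library labelled HR1 replicate 1 (adjusted p = 0.369). LM9 exceeded LM1 by 0.51 (adjusted p = 0.0332), a call that was lost with library size scaling (0.44) and without any LM tumour but LM1 replicate 2 (0.44 to 0.57).

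Per kilobase of exon, the scale on which chains can be compared, β1 was the most abundant β chain in every tumour. *Itgb1*, the partner of the α chains of most laminin, collagen and fibronectin receptors, was at 618, 1168 and 744 CPM in HR1, 1061, 1154 and 1015 CPM in LM1 and 1160, 1113 and 1136 CPM in LM9. Its log2 difference was 0.39 ± 0.19 (SE, adjusted p = 0.132), and 0.22 without the library labelled HR1 replicate 1 (adjusted p = 0.265). Of the summed CPM per kilobase of the 8 β chains, *Itgb1* made up 62.8% ± 9.07 (SD, n = 3) in HR1, 93.9% ± 0.333 in LM1 and 88.1% ± 2.20 in LM9. *Itgb5* made up 32.4% ± 7.80 in HR1, 4.67% ± 0.359 in LM1 and 5.20% ± 0.133 in LM9. Neither share overlapped between HR1 and the LM tumours, the library labelled HR1 replicate 1 included, with 72.6% *Itgb1* and 26.0% *Itgb5*. Among the αv partners without *Itgb1*, *Itgb5* was still 86.6% to 99.3% of each tumour's sum, and *Itgb6* went from 0.318% ± 0.127 in HR1 to 10.5% ± 2.22 in LM1 and 12.6% ± 0.585 in LM9.

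**Figure D2:**
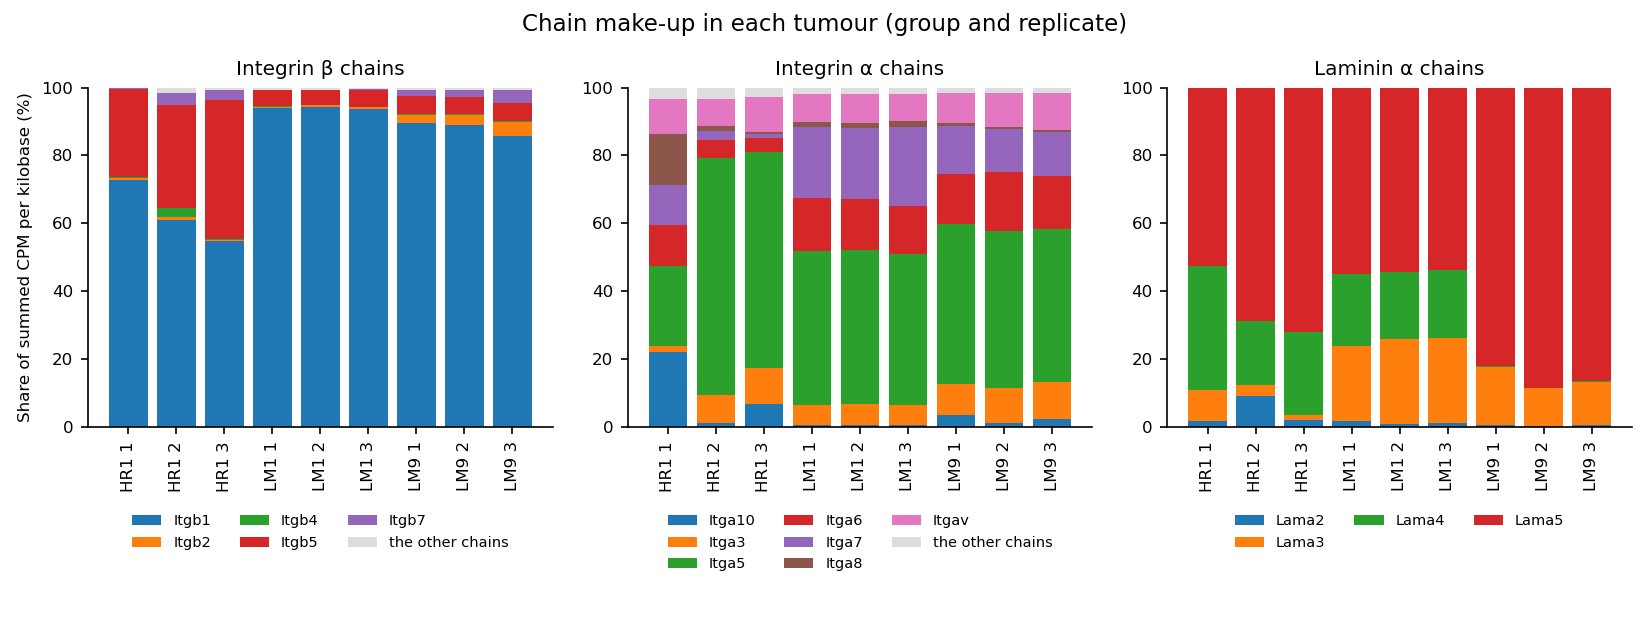
Share of the summed CPM per kilobase (vertical axis, percent) taken by each integrin β, integrin α and laminin α chain in each of the 9 tumours (bars, named by group and replicate). *Itgb5* filled 26.0% or more of each HR1 bar and 5.35% or less of each LM bar, and *Lama4* is hardly visible in LM9.

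*Itgb4* encodes β4, which with α6 anchors epithelial cells to laminin-332 in hemidesmosomes. It was at 3.62, 87.1 and 7.39 CPM in HR1, at 2.52, 1.65 and 1.75 CPM in LM1 and at 5.75, 5.95 and 5.40 CPM in LM9. HR1 replicate 2 stood far over the other HR1 tumours, and LM9 lay between the other HR1 values. *Itgb4* fell by 3.28 ± 0.80 on the log2 scale (SE, adjusted p = 0.011). This rests on HR1 replicate 2, since without it the difference was −0.71 and not called, and limma-voom gave an adjusted p of 0.104. The log2 fold change was −3.81 (adjusted p = 0.00105) without the library labelled HR1 replicate 1. An opposite-strand transcript overlaps 7.66% of the *Itgb4* exon length, and the strand setting of the counting is not stated.

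*Itgb2* and *Itgb7* encode β chains of leukocytes, and both were higher in LM9 than in LM1. *Itgb2* was at 4.99, 12.8 and 3.22 CPM in HR1, at 4.47, 5.32 and 4.50 CPM in LM1 and at 20.8, 26.7 and 43.3 CPM in LM9. *Itgb7* was at 1.23, 48.1 and 25.7 CPM in HR1, at 0.924, 0.838 and 1.42 CPM in LM1 and at 16.4, 16.98 and 35.0 CPM in LM9. Every LM9 tumour was above every LM1 tumour for both. LM9 exceeded LM1 by 2.67 ± 0.50 (log2, SE, adjusted p = 0.00856) for *Itgb2* and by 4.43 ± 1.06 (adjusted p = 0.0203) for *Itgb7*.

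Against HR1, *Itgb7* fell by 2.35 ± 0.76 on the log2 scale (SE, adjusted p = 0.0351) in both LM models together, with −4.56 in LM1 and −0.14 (adjusted p = 0.916) in LM9. By limma-voom it was not called against HR1 (adjusted p = 0.309) or between LM9 and LM1 (adjusted p = 0.0891). The call against HR1 was also lost without HR1 replicate 2 (−1.46) or 3 (−2.33), and without any LM tumour but LM9 replicate 3 (−2.25 to −2.48). The call against HR1 was kept without the library labelled HR1 replicate 1 (−2.91, adjusted p = 1.1e-04). The call between LM9 and LM1 was lost without any LM tumour but LM9 replicate 2 (3.98 to 4.69). Against HR1, *Itgb2* rose by 2.11 ± 0.49 (log2, SE, adjusted p = 0.00987) in LM9 and differed by −0.56 (adjusted p = 0.395) in LM1. In both models together it was not called (0.78, adjusted p = 0.17, and 0.59, adjusted p = 0.31, without the library labelled HR1 replicate 1), but without HR1 replicate 2 it was called higher (1.55, adjusted p = 0.00861). The library labelled HR1 replicate 1 was at the LM1 level. Summed over 10 leukocyte markers, the level was 212 to 913 CPM in HR1, 176 to 194 CPM in LM1 and 199 to 239 CPM in LM9, and 7 of the 10 fell and none rose in LM1 and LM9 together. Between LM9 and LM1, 1 marker was higher (*Cd68*, a lysosomal protein of macrophages and some other cells), 1 was lower (*C1qa*) and 8 were not called, with a median log2 difference of −0.81. Without *Cd68* the other 9 markers summed to 171 to 792 CPM in HR1, 158.0 to 178 CPM in LM1 and 63.4 to 105 CPM in LM9. HR1 replicate 2, with the 913 CPM, also held the highest HR1 level of *Itgb2*, *Itgb3*, *Itgb4*, *Itgb7* and *Lama2*. The same held for many other integrin, laminin and linker genes, among them *Itgb1*, *Itgb5*, *Itga1*, *Itga5*, *Lama4*, *Lama5*, *Lamb1*, *Lamc1* and *Agrn*. It did not hold for others, such as *Itga3*, *Itgav*, *Itgb6* and *Lamc3*. The part of leukocytes in these levels was not tested. *Ptprc*, the marker of all leukocytes, was at 2.29 to 11.3 CPM in the HR1 tumours and at 2.46 to 6.01 CPM in the LM tumours. The leukocyte α chains that pair with β2 and β7 (*Itgal*, *Itgam*, *Itgax* and *Itgae*) summed to 8.82 to 11.6 CPM in LM1 and 5.43 to 9.27 CPM in LM9, and none of the 4 was called between the models.

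**Figure D3:**
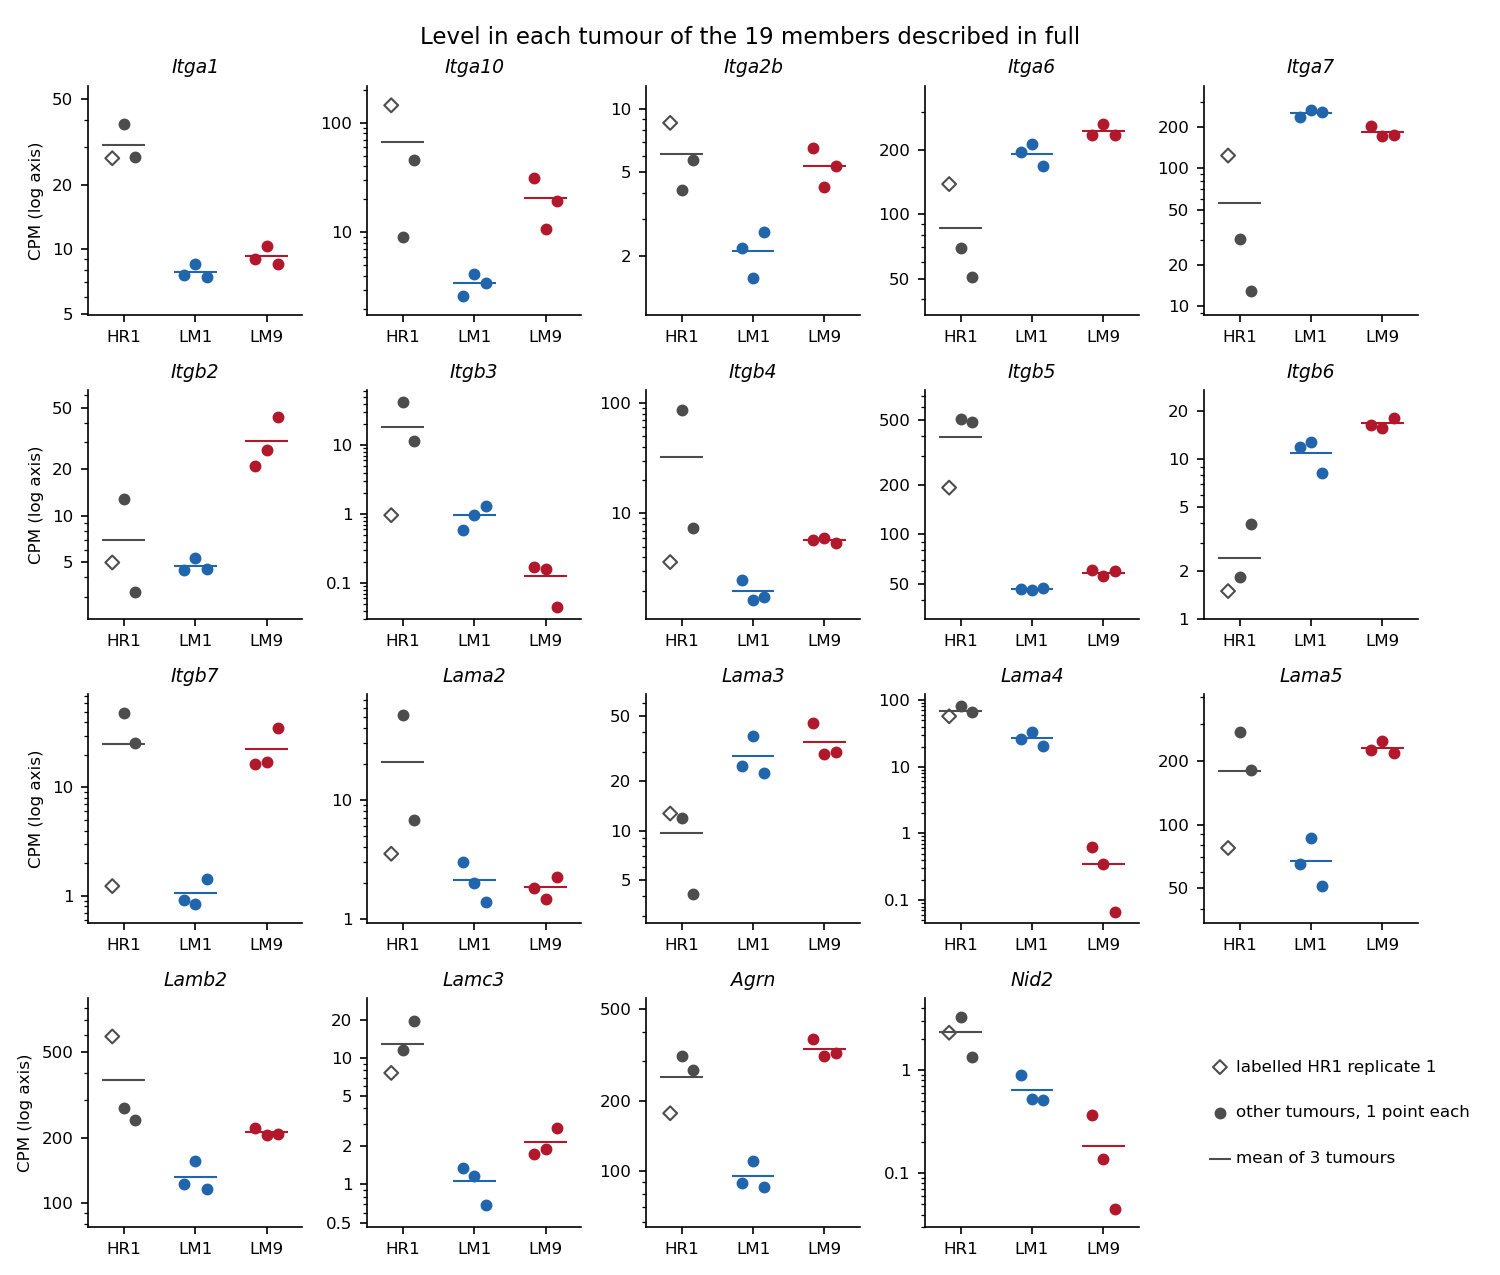
CPM in each tumour (vertical log axis, 1 point a tumour, line at the group mean) for the 19 genes called with a change of at least 2-fold in LM1 and LM9 together against HR1 or in LM9 against LM1, with a mean of at least 1 CPM. Open diamonds are the library labelled HR1 replicate 1, which lies among the LM1 points for *Itgb3*, *Itgb7* and *Lama5* and at 123 CPM, over the other HR1 points, for *Itga7*.

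Of the laminin-binding α chains *Itga3*, *Itga6* and *Itga7*, the last 2 rose. *Itga6* (chr2:71786886-71858427) encodes α6, the partner of β1 and β4 and a surface marker of basal mammary cells. It was at 138.5, 69.2 and 50.6 CPM in HR1, at 195, 213 and 169 CPM in LM1 and at 234, 266 and 235 CPM in LM9. The groups did not overlap. *Itga6* rose by 1.34 ± 0.29 (log2, SE, adjusted p = 0.0068), and by 1.86 (adjusted p = 1.2e-05) without the library labelled HR1 replicate 1, its highest HR1 value.

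*Itga7* (chr10:128933421-128958286) encodes α7, the main laminin integrin chain of muscle. It was at 123, 30.7 and 12.9 CPM in HR1, at 233, 262 and 254 CPM in LM1 and at 201, 171 and 173 CPM in LM9. All LM tumours were above all HR1 tumours. *Itga7* rose by 1.94 ± 0.61 (log2, SE, adjusted p = 0.0316) with all tumours, a call that was lost without any 1 of the LM tumours (1.90 to 1.96) or HR1 replicate 2 (1.64), and by 3.29 (adjusted p = 3.9e-05) without the library labelled HR1 replicate 1. Of the summed CPM per kilobase of the 13 α chains, *Itga7* took 5.28% ± 5.82 (SD, n = 3) in HR1, 21.7% ± 1.51 in LM1 and 13.2% ± 0.829 in LM9, and *Itga6* took 7.24% ± 4.2 in HR1, 14.9% ± 0.849 in LM1 and 16.02% ± 1.37 in LM9.

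*Itga3* (α3), a further laminin-binding partner of β1, was at 14.0, 66.0 and 81.1 CPM in HR1, 47.6, 55.4 and 44.8 CPM in LM1 and 90.7, 99.2 and 103 CPM in LM9. The library labelled HR1 replicate 1 held the lowest value and LM9 the highest. It was not called with all tumours (log2 difference 0.37 ± 0.43, SE, adjusted p = 0.521). Without that library LM1 was lower than HR1 by 0.57 and LM9 higher by 0.41, both called.

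*Itga5*, the fibronectin chain α5, was at 148, 486 and 413.5 CPM in HR1, 311, 347 and 294.5 CPM in LM1 and 408.5, 382 and 368 CPM in LM9. It was the most abundant α chain per kilobase in every tumour, at 23.5% of the α chain sum in the library labelled HR1 replicate 1 and 44.6% to 69.7% in the other 8. Its log2 difference was 0.00 ± 0.31 (SE, adjusted p = 0.994), and −0.36 (adjusted p = 0.0204) without that library.

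The collagen-binding α chains were lower in the LM models where they were called. *Itga1* (α1, chr13:114958079-115101964) was at 26.5, 38.4 and 26.8 CPM in HR1, at 7.54, 8.56 and 7.39 CPM in LM1 and at 8.97, 10.4 and 8.48 CPM in LM9. All LM tumours were under all HR1 tumours. *Itga1* fell by 1.84 ± 0.16 on the log2 scale (SE, adjusted p = 1.0e-04), 3.59-fold, and the log2 fold change was −1.93 without the library labelled HR1 replicate 1.

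*Itga10* (α10, a chain of cartilage) was at 144.6, 9.01 and 45.4 CPM in HR1, at 2.65, 4.17 and 3.45 CPM in LM1 and at 31.4, 10.8 and 19.4 CPM in LM9. The HR1 tumours spread widely and overlapped LM9. In both models together it fell by 2.98 ± 0.67 on the log2 scale (SE, adjusted p = 0.00739) with all tumours. The log2 fold change was −1.69 (adjusted p = 0.025) without the library labelled HR1 replicate 1, its highest value. Limma-voom did not call it in both models together (adjusted p = 0.0641). By model, the log2 fold change was −4.27 (adjusted p = 0.00763) in LM1 and −1.69 (adjusted p = 0.123) in LM9. Without that library the LM9 value was −0.40 (adjusted p = 0.608). An annotated gene on the same strand covers 33.5% of the *Itga10* exon length, so its count is uncertain. *Itga2* and *Itga11*, the other collagen chains, were at 3.40 CPM or less in every tumour and not called with all tumours (log2 differences −2.01 and −1.55, adjusted p = 0.112 and 0.0942). Without the library labelled HR1 replicate 1 both were called lower, with −2.57 (adjusted p = 0.00625) for *Itga2* and −2.0 (adjusted p = 0.0141) for *Itga11*.

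*Itga2b* encodes αIIb of platelets. It was at 8.61, 4.10 and 5.74 CPM in HR1, at 2.18, 1.56 and 2.59 CPM in LM1 and at 6.53, 4.24 and 5.38 CPM in LM9. LM1 lay under the other models, and LM9 overlapped HR1. *Itga2b* fell by 1.54 ± 0.36 on the log2 scale (SE, adjusted p = 0.0111) in LM1, and differed by −0.19 ± 0.35 (adjusted p = 0.684) in LM9. Its call in both models together (−0.87) was lost by limma-voom (adjusted p = 0.0541), without the library labelled HR1 replicate 1 (−0.54) or HR1 replicate 3 (−0.91), and without any LM tumour but LM1 replicate 3 (−0.79 to −0.95). LM9 exceeded LM1 by 1.35 on the log2 scale, a call lost without any 1 of the 6 LM tumours (1.18 to 1.52). Of 4 platelet markers, 3 fell and 1 rose in LM1 and LM9 together, and *Pf4* was at 1.85 to 10.8 CPM in HR1 and 1.35 to 3.45 CPM in the LM tumours. Their part in the level of *Itga2b* and *Itgb3* was not tested.

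Of the other α chains, *Itga9* (tenascin and VCAM-1 receptor with β1) rose by 0.61 ± 0.17 on the log2 scale (SE, adjusted p = 0.019), from 6.46 to 8.94 CPM in HR1 to 9.34 to 15.2 CPM in the LM tumours. It was 0.72 (adjusted p = 0.00478) without the library labelled HR1 replicate 1, and not called without LM9 replicate 2 (0.57, adjusted p = 0.0514). *Itga8* (α8, a nephronectin receptor) was at 141 CPM in the library labelled HR1 replicate 1 and at 6.02 to 18.4 CPM in the other 8 tumours. Its uncalled log2 difference of −1.97 (adjusted p = 0.0668) became 0.49 (adjusted p = 0.169) without that library. *Itga4* (α4, a leukocyte chain that also binds fibronectin) was at 2.004 CPM or less in every tumour, with a log2 difference of −1.57 (adjusted p = 0.0506) that was called without the library labelled HR1 replicate 1 (−1.62, adjusted p = 0.0428).

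Laminin chains changed unequally. *Lama3* encodes α3 of laminin-332, the epithelial laminin that hemidesmosomes hold. *Lama3* was at 12.7, 12 and 4.09 CPM in HR1, at 24.7, 37.7 and 22.5 CPM in LM1 and at 45.0, 29.1 and 30.2 CPM in LM9. All LM tumours were above all HR1 tumours. *Lama3* rose by 1.71 ± 0.38 (log2, SE, adjusted p = 0.00745), and by 1.96 (adjusted p = 0.00438) without the library labelled HR1 replicate 1.

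Its partner *Lamb3* (β3) was at 1.30, 3.94 and 4.89 CPM in HR1, 7.10, 7.27 and 4.70 CPM in LM1 and 8.31, 6.25 and 6.71 CPM in LM9. It was not called with all tumours (log2 difference 0.99 ± 0.40, SE, adjusted p = 0.0738) or without the library labelled HR1 replicate 1 (0.61, adjusted p = 0.0516), but limma-voom (1.11, adjusted p = 0.0438) and DESeq2 (adjusted p = 0.0292) called it higher.

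*Lama4* encodes α4 of laminin-411, the laminin of vessels and mesenchymal cells, and was the gene of the 36 with the largest difference between LM9 and LM1. *Lama4* (chr10:38965515-39110188) was at 57.0, 81.2 and 64.9 CPM in HR1, at 26.3, 33.3 and 20.2 CPM in LM1 and at 0.623, 0.343 and 0.0675 CPM in LM9. The LM9 values come from 29, 15 and 3 counts, against 794 to 3605 counts in the other 6 tumours. *Lama4* fell by 1.35 ± 0.44 on the log2 scale (SE, adjusted p = 0.0422) in LM1. The log2 fold change was −7.60 ± 0.60 (adjusted p = 8.1e-05) in LM9 against HR1 and −6.25 ± 0.57 (adjusted p = 5.0e-04) in LM9 against LM1, the latter −7.0 without LM9 replicate 1. In both models together it was −4.47, and −4.57 without the library labelled HR1 replicate 1. Of 10 fibroblast markers, 9 fell and none rose in LM1 and LM9 together, and between LM9 and LM1 2 fell and none rose. The latter were *Lum* (lumican), at 444 to 577 CPM in LM1 and 19.7 to 78.1 CPM in LM9 (log2 difference −3.51, adjusted p = 0.00268), and *Dpt* (dermatopontin), at −0.70 (adjusted p = 0.0305). *Dcn* (decorin) was at 562 to 644.5 CPM in LM1 and 15.9 to 76.8 CPM in LM9 (−3.53, adjusted p = 0.105). The markers with a positive difference were *Pdgfra*, at 40.2 to 45.9 CPM in LM1 and 82.7 to 102.5 CPM in LM9 (1.08, adjusted p = 0.0681), and *Col1a2* (0.58, adjusted p = 0.699). Without the library labelled HR1 replicate 1, 1 of the 10 was called higher and 4 lower in LM9 than in LM1. The sum of the 10 was 10680 to 14040 CPM in LM1 and 9152 to 10700 CPM in LM9, most of it from *Col1a1* and *Col3a1*, and the part of fibroblasts in the level of *Lama4* was not tested. Of 7 endothelial markers, 5 fell and 2 (*Cdh5* and *Kdr*) rose in LM1 and LM9 together, and none was called between LM9 and LM1. Against HR1, 2 rose and 0 fell in LM1, and 2 rose and 2 fell in LM9. Their sum was 6.33 to 29.6 CPM in HR1, 164 to 227 CPM in LM1 and 253 to 291 CPM in LM9. *Pecam1* was at 1.18 to 6.42 CPM in HR1 and 0.383 to 1.25 CPM in the 6 LM tumours. *Cdh5* was at 1.88 to 13.4 CPM in HR1 and 136 to 253.5 CPM in the LM tumours, and *Kdr* at 0.432 to 1.73 CPM and 22.3 to 37.3 CPM.

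*Lama2*, the α2 chain of muscle and nerve laminins, was at 3.52, 51.8 and 6.74 CPM in HR1, at 3.03, 2.02 and 1.37 CPM in LM1 and at 1.80, 1.47 and 2.25 CPM in LM9. HR1 replicate 2 stood far over the other HR1 tumours, the lowest of which was close to the highest LM1 tumour. *Lama2* fell by 3.38 ± 0.72 on the log2 scale (SE, adjusted p = 0.00592) with all tumours. Without HR1 replicate 2 the log2 fold change was −1.37 and still called, and without the library labelled HR1 replicate 1 it was −3.87.

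*Lama5* encodes α5, the chain of laminin-511 and the most abundant laminin α chain per kilobase in every tumour. It was at 77.6, 275 and 182 CPM in HR1, at 65.1, 86.7 and 51.3 CPM in LM1 and at 226, 248 and 218 CPM in LM9. LM1 was under LM9 in every pair of tumours, and the library labelled HR1 replicate 1 was at the LM1 level. *Lama5* fell by 1.40 ± 0.40 on the log2 scale (SE, adjusted p = 0.0247) in LM1, while LM9 differed from HR1 by 0.37 ± 0.39 (adjusted p = 0.468) and exceeded LM1 by 1.77 ± 0.40 (adjusted p = 0.017). That last call was lost without LM1 replicate 1 (1.74), LM1 replicate 3 (1.60), LM9 replicate 1 (1.78) or LM9 replicate 2 (1.68). In both models together against HR1, *Lama5* was not called (−0.51, adjusted p = 0.239) and was called lower without the library labelled HR1 replicate 1 (−0.87, adjusted p = 0.00425).

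Of the summed CPM per kilobase of the 4 laminin α chains, *Lama5* took 64.5% ± 10.4 (SD, n = 3) in HR1, 54.4% ± 0.577 in LM1 and 85.7% ± 3.35 in LM9. *Lama4* took 26.6% ± 8.93, 20.3% ± 0.689 and 0.118% ± 0.0938. *Lama3* took 4.68% ± 3.93, 24.1% ± 1.69 and 13.7% ± 3.26. The *Lama3* share of each LM tumour was above that of each HR1 tumour, and each LM1 tumour was above each LM9 tumour.

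*Lamb2*, the β2 chain that replaces β1 in laminin-421 and laminin-521, was at 588, 275 and 242 CPM in HR1, at 122, 156 and 115.5 CPM in LM1 and at 222, 206.5 and 208.5 CPM in LM9. All LM tumours were under all HR1 tumours. *Lamb2* fell by 1.14 ± 0.26 on the log2 scale (SE, adjusted p = 0.00782), and the log2 fold change was −0.63 (adjusted p = 0.00222) without the library labelled HR1 replicate 1. *Lamb1*, the β1 chain, was at 13.1, 229 and 155 CPM in HR1, 83.9, 99.4 and 66.5 CPM in LM1 and 123, 126 and 115 CPM in LM9. *Lamb1* differed by −0.40 ± 0.62 (log2, SE, adjusted p = 0.63) and by −0.93 (adjusted p = 0.00111) without that library.

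*Lamc1*, the γ1 chain of most laminins, was at 202, 541 and 490.2 CPM in HR1, 326, 430 and 293 CPM in LM1 and 341, 346 and 314 CPM in LM9. Its log2 difference of −0.27 (adjusted p = 0.463) became −0.59 (adjusted p = 0.00543) without the library labelled HR1 replicate 1. *Lamc3*, the γ3 chain, was at 7.65, 11.6 and 19.8 CPM in HR1, at 1.34, 1.18 and 0.686 CPM in LM1 and at 1.74, 1.90 and 2.81 CPM in LM9. The groups did not overlap. *Lamc3* fell by 3.10 ± 0.34 on the log2 scale (SE, adjusted p = 2.9e-04), 8.58-fold, and the log2 fold change was −3.36 without that library. An antisense transcript overlaps 6.27% of its exon length.

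Of the linkers, *Agrn* (agrin, a heparan sulphate proteoglycan that binds laminin and dystroglycan) was at 178, 314 and 272 CPM in HR1, at 88.4, 110.7 and 85.7 CPM in LM1 and at 371, 315 and 324 CPM in LM9. LM1 was under HR1 in every tumour and LM9 over it. *Agrn* fell by 1.42 ± 0.22 on the log2 scale (SE, adjusted p = 0.00168) in LM1 and differed by 0.41 ± 0.21 (adjusted p = 0.153) in LM9. LM9 exceeded LM1 by 1.83 ± 0.22 (adjusted p = 0.00146), and every LM9 tumour was above every LM1 tumour. In both models together the log2 fold change was −0.51 ± 0.18 (adjusted p = 0.0479), which limma-voom did not call (adjusted p = 0.0658). That call was also lost with library size scaling and without HR1 replicate 2 (−0.33), HR1 replicate 3 (−0.46) or any LM tumour but LM1 replicate 2 (−0.47 to −0.55). It was −0.71 (adjusted p = 0.00115) without the library labelled HR1 replicate 1.

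*Nid2* (nidogen-2) was at 2.29, 3.29 and 1.34 CPM in HR1, at 0.903, 0.521 and 0.508 CPM in LM1 and at 0.365, 0.137 and 0.0450 CPM in LM9. The groups did not overlap. *Nid2* fell by 2.73 ± 0.54 on the log2 scale (SE, adjusted p = 0.00397), with the same difference of −2.73 without the library labelled HR1 replicate 1. An opposite-strand gene overlaps 8.45% of its exon length. *Nid1* (nidogen-1) was at 1.75 to 6.10 CPM in all 9 tumours and differed by −0.24 (adjusted p = 0.668), and by −0.50 (adjusted p = 0.299) without that library. *Hspg2* (perlecan) had the highest level per kilobase of the linkers in each model, 59.3 ± 13.2 CPM per kilobase (SD, n = 3) in HR1, 44.3 ± 13.5 in LM1 and 67.6 ± 2.09 in LM9, and was not called against HR1 (log2 difference −0.12 in both models together and −0.24 without the library labelled HR1 replicate 1).

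*Dag1*, which encodes both subunits of dystroglycan, the laminin and agrin receptor, was at 169 to 195 CPM in HR1, 146 to 193 CPM in LM1 and 229 to 248.8 CPM in LM9. It rose by 0.42 ± 0.14 (log2, SE, adjusted p = 0.039) in LM9 against HR1 and by 0.52 ± 0.14 (adjusted p = 0.0303) in LM9 against LM1. The call against LM1 was lost without any LM tumour but LM1 replicate 2 (0.43 to 0.54). In both models together against HR1 the difference was 0.16 (adjusted p = 0.316), and 0.23 (adjusted p = 0.124) without the library labelled HR1 replicate 1.

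Set against each other, LM9 and LM1 differed in 8 of the 36 genes. *Agrn*, *Dag1*, *Itga2b*, *Itgav*, *Itgb2*, *Itgb7* and *Lama5* were higher in LM9 and *Lama4* was lower, where 11.5% and 10.6% of all genes were called. Without the library labelled HR1 replicate 1, 14 were called higher and 3 lower in LM9, beside 22.9% higher and 22.5% lower of all genes. Among them *Itga10*, *Itgb5*, *Lamb2* and *Lamc3* were higher and *Itga9* and *Itgb3* lower. Without HR1 replicate 2, *Itga10* and *Itgb4* were gained. The median log2 difference was 0.29 over the 36 and 0.00 over all genes. The CPM of the 3 LM9 tumours lay above those of the 3 LM1 tumours for 18 genes and below for 7, where 31.9% and 31.1% of all genes did so. A test of 3 tumours against 3 cannot give an exact permutation p under 0.1.

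**Figure D4:**
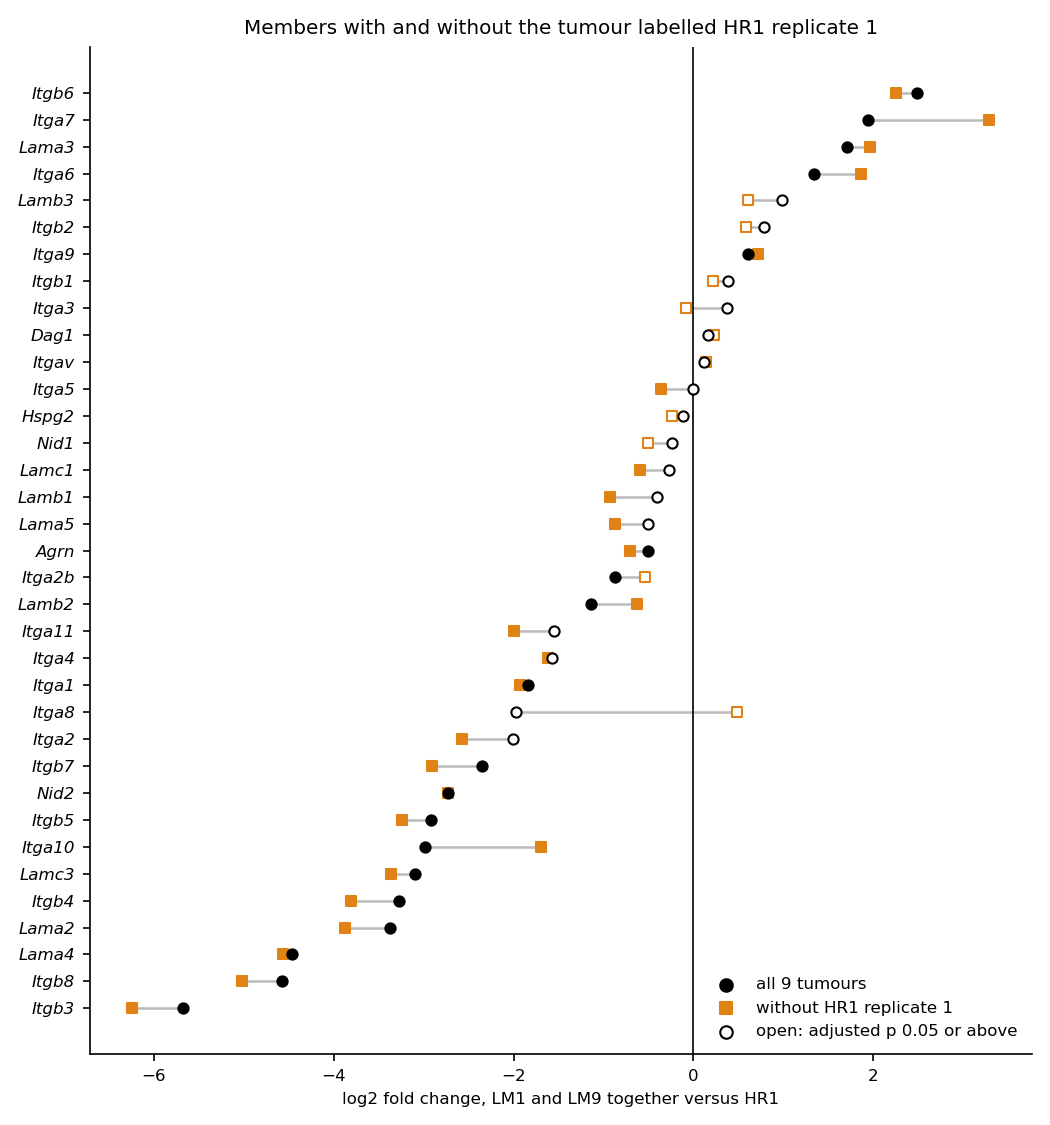
Log2 fold change of 35 of the genes in LM1 and LM9 together against HR1 (horizontal axis) with all 9 tumours (black circles) and without the library labelled HR1 replicate 1 (orange squares); open symbols have an adjusted p of 0.05 or above. *Itga8* moved most, from −1.97 to 0.49, and the fall of *Itga2b* was no longer called.

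The library labelled HR1 replicate 1 held the highest of the 9 values for 4 of the 36 genes (*Itga10*, *Itga2b*, *Itga8* and *Lamb2*), where it did so for 21.8% of all genes. It held the lowest for 9, among them *Itga3*, *Itga5*, *Itgb1*, *Itgb6*, *Lamb1* and *Lamc1*, where it did so for 23.7% of all genes. *Lamb1* was at 0.068 times the mean of the other HR1 tumours and *Lamb2* at 2.27 times.

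Other genes of integrin ligands, the basement membrane, adhesion plaques and hemidesmosomes were counted from lists, to be read beside the 19.9% of all genes that were higher and the 23.6% that were lower in LM1 and LM9 together (27.5% and 28.5% without the library labelled HR1 replicate 1). Of 20 matrix ligands of integrins that were tested, 3 rose and 7 fell in LM1 and LM9 together (3 and 12 without the library labelled HR1 replicate 1), with a median of −0.81. These are 15% and 35.0% of the list, and 15% and 60.0% without that library. *Postn* (periostin, a ligand of αvβ3 and αvβ5) was at 47.3, 1374 and 1021 CPM in HR1 and at 2.93 to 41.6 CPM in the LM tumours, and fell by 5.79 ± 0.82 on the log2 scale (SE, adjusted p = 9.2e-04), with −5.19 without HR1 replicate 2. *Col1a2* (a chain of type I collagen) was at 44.2, 1472 and 2725 CPM in HR1 and at 35.0 to 73.2 CPM in the LM tumours, and fell by 4.92 ± 0.85 (adjusted p = 0.00224). For both, the library labelled HR1 replicate 1 lay near the LM levels. *Ibsp* (bone sialoprotein, an αvβ3 ligand) fell by 4.13 ± 0.89. *Npnt* (nephronectin, the α8β1 ligand) fell by 3.92 ± 0.75, and the log2 fold change was −1.59 without that library, which held 628 CPM.

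Of 17 other basement membrane genes tested, none rose and 8 fell (2 and 10 without the library labelled HR1 replicate 1), with a median of −1.05. The fallen genes are 47.1% of the list, and 58.8% without that library. *Col4a1*, a main chain of type IV collagen, was at 8.11, 86.5 and 13.9 CPM in HR1 and at 4.33 CPM or less in the LM tumours, and fell by 4.14 ± 0.72 on the log2 scale (SE, adjusted p = 0.00237). *Col4a2*, its partner chain, was at 9.38 and 13.6 CPM in HR1 replicates 1 and 3, far higher in HR1 replicate 2, and at 2.51 CPM or less in the LM tumours, and fell by 4.85 ± 0.76. HR1 replicate 2 held the highest level of both chains, and without it the log2 fold changes were −2.42 for *Col4a1* and −2.89 for *Col4a2*, both called. *Smoc2* (a matricellular protein) fell by 8.78 ± 0.72 (−7.82 without HR1 replicate 2) and was under 1 CPM in all LM tumours, and *Fbln1* (fibulin-1) fell by 4.85 ± 1.07 with all tumours, and the log2 fold change was −1.07 without the library labelled HR1 replicate 1, which held 1741 CPM.

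Of 32 adhesion plaque genes tested, 7 rose and 6 fell (10 and 10 without the library labelled HR1 replicate 1), with a median of 0.09. These are 21.9% and 18.8% of the list, and 31.2% and 31.2% without that library, close to the shares of all genes. *Vcl* (vinculin, which ties talin to actin) was at 216, 983 and 1098 CPM in HR1 and at 147 to 233 CPM in the LM tumours, and fell by 2.04 ± 0.39 (SE, adjusted p = 0.00377). *Tln2* (talin-2) rose by 1.90 ± 0.36, *Ptk2b* (the focal adhesion kinase relative PYK2) rose by 1.95 ± 0.32, and *Parvg* (a parvin of blood cells) fell by 1.72 ± 0.43, a call that was lost without HR1 replicate 2 (−1.21, adjusted p = 0.0551).

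Of the 11 hemidesmosome and tetraspanin genes, 2 rose and 5 fell (2 and 3 without the library labelled HR1 replicate 1), with a median of −0.42. These are 18.2% and 45.5% of the list, and 18.2% and 27.3% without that library. *Col17a1* (the collagen of hemidesmosomes) was at 0.133, 0.180 and 0.386 CPM in HR1 and at 1.68 to 2.59 CPM in the LM tumours, and rose by 3.20 ± 0.43 (log2, SE, adjusted p = 6.4e-04). *Krt5*, the basal keratin whose filaments hemidesmosomes hold, was at 0.0998, 0.630 and 10.7 CPM in HR1, 0.864 to 1.11 CPM in LM1 and 0.0229 CPM or less in LM9. The tetraspanins *Cd81* and *Cd9*, which associate with integrins in the membrane, had log2 fold changes of −1.45 ± 0.12 and −0.82 ± 0.17, both called. Of 6 basal markers, 1 rose and 3 fell in LM1 and LM9 together, and 3 were lower in LM9 than in LM1. Summed they were at 105 to 651 CPM in HR1, 216 to 250 CPM in LM1 and 14.3 to 17.9 CPM in LM9, the model with the highest *Itga6*.

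Of 21 genes of the dystrophin complex and of the sugar chain by which dystroglycan holds laminin, 1 rose and 7 fell (4 and 10 without the library labelled HR1 replicate 1), with a median of −0.44. These are 4.76% and 33.3% of the list, and 19% and 47.6% without that library. *Sspn* (sarcospan) fell by 1.08 ± 0.12 on the log2 scale (SE), and *Sntb1* (a syntrophin) fell by 1.00 ± 0.27. *Pomk* and *Pomt2*, enzymes that build the sugar chain, had log2 fold changes of −1.28 ± 0.15 and −0.96 ± 0.14. All 3 HR1 tumours were above all 6 LM tumours for these 4 genes, which were named for the size of their change. Of all genes, 14.3% lay lower in this way. *Dag1* itself was not called lower in LM1 or LM9.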

How the data were processed

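RNA-seq counts of GFP-sorted cells from 9 tumours were analysed, 3 each of HR1, LM1 and LM9, with model and replicate taken from the sample titles. The authors deposited whole-number counts per gene, not normalized, 1 table a tumour, listed by Entrez number. Per the methods, the authors made stranded single-end libraries, aligned them to mm10 (also the build in the submitters' processing notes) with STAR and counted 5′ read ends over the union of each gene's exons with qCount of QuasR. The strand setting of the counting is not given in the sources used here. Each listed gene has at least 7 counts in at least 3 tumours, so lower genes are not analysed here, and Lama1 is the 1 symbol of the rule that is not among those listed.

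Symbols came from the RefSeq table (GRCm38.p6) for 14085 genes and from GENCODE for 4, and 19 were unmatched. Coordinates are those of RefSeq, and exon lengths and overlaps those of GENCODE (GRCm38). Counts were TMM-scaled, 22 genes were left out by filterByExpr, and the robust quasi-likelihood F-test of edgeR 4.0.16 in R 4.3.3 was fitted over the 3 groups, with Benjamini-Hochberg adjustment over 14086 genes and a threshold of 0.05. SE is the log2 fold change divided by the root of F and is approximate. The study's methods name limma-voom, which was run as an alternative (limma 3.58.1) beside DESeq2 1.42.0, other scalings and filters, a fit without the robust step, fits to only the tumours compared, the replicate number as a block and each tumour left out in turn. The edgeR, DESeq2 and limma-voom fits were tested on simulated data. Single genes were also compared by exact permutation tests with scipy 1.17.1 in Python 3.11.15, and figures were drawn with matplotlib 3.10.9. No tumours of a model agreed within sampling noise. Nothing in the labels says that the 3 tumours of a model came from separate cultures, so p-values measure the spread between tumours. The floor of 3 counts covers counting error only.

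Per-tumour values were given for genes with an adjusted p under 0.05, a change of at least 2-fold in LM1 and LM9 together versus HR1 or in LM9 versus LM1 and a mean of at least 1 CPM, and for chains that form a known dimer or trimer with them. From each list up to 4 called genes of the largest change were named. The genes, lists and rules were chosen with earlier results of these data known. No authors' comparisons are in the files. The values of 1 of the 36 genes are not reported here, though it is within the counts of genes.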

Additional observations from a re-analysis of the deposited data

Results flagged for a closer look

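LM9 and LM1 differed from each other in 8 of the 36 genes, by the edgeR test of LM9 versus LM1, which is the difference between their changes from the shared HR1 tumours. Of all genes tested, 11.5% were called higher and 10.6% lower in LM9. *Itgb7* (4.43), *Itgb2* (2.67), *Agrn* (1.83), *Lama5* (1.77), *Itga2b* (1.35), *Dag1* (0.52) and *Itgav* (0.51) were higher in LM9, given as log2 differences, and *Lama4* (−6.25) was lower. In each of the 8, all 3 LM9 tumours lay beyond all 3 LM1 tumours, where 31.9% of all genes lay above and 31.1% below in this way. The 3 tumours of each model repeat the injection of 1 line, and the derivation of a line has no replicate.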

How the results depend on the processing

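In LM1 and LM9 together versus HR1, the count of genes called lay between 14 and 26 over the 17 alternatives, against 19. Without 1 tumour each it ranged from 11 to 27 in LM1 versus HR1 (main 18), from 10 to 25 in LM9 versus HR1 (main 13) and from 3 to 17 in LM9 versus LM1 (main 8). The highest of these came without the library labelled HR1 replicate 1. In LM1 versus HR1 the 11 came without LM1 replicate 1, and in LM9 versus LM1 the count was 3 without LM1 replicate 1, LM1 replicate 3 or LM9 replicate 1 and 4 without LM9 replicate 2 or 3, with *Agrn*, *Itgb2* and *Lama4* kept throughout. DESeq2 called 21 in LM9 versus HR1, and a fit to only the 6 LM tumours called 24 in LM9 versus LM1. The calls over all genes moved with these counts. In LM1 and LM9 together versus HR1 they were 6138 with all tumours, 4955 in the fit that called 14 (without LM9 replicate 2) and 7902 in the fit that called 26 (without the library labelled HR1 replicate 1). In LM9 versus LM1 they were 3102 with all tumours, 7709 in the fit to the 6 LM tumours, 6413 without the library labelled HR1 replicate 1 and 1150 to 1451 in the fits that called 3 or 4 of the 36. In LM1 versus HR1 they were 4994 with all tumours, 3121 without LM1 replicate 1 and 7453 without the library labelled HR1 replicate 1, and in LM9 versus HR1 5958, 6669 by DESeq2, 7862 without the library labelled HR1 replicate 1 and 3768 to 4110 without an LM9 tumour. The fit to the 6 LM tumours takes its spread from them alone, and for the others the cause was not tested. Of 802 values of the 23 genes under the alternatives, 707 kept their direction and side of the threshold, 68 lost the call, 25 gained it and 2 turned, both in LM9 versus LM1 and not called. Without 1 tumour each, *Lama2* (−0.22) ranged from −0.45 to 0.12, the latter without LM1 replicate 1, and *Itgb8* (−1.49), which has counts in 1 tumour of each LM model, ranged from −4.60 to 3.09, the latter without LM1 replicate 2. *Itgb8* did not enter the fit with the CPM filter or, between LM9 and LM1, the fit to the 6 LM tumours. Against HR1, the calls of *Agrn* (lost in 10 of 17 alternatives), *Itgb7* (9), *Itga2b* (8), *Itga7* (7), *Itgb4* (3), *Itga10* (1) and *Itga9* (1) were lost, and those of the other 12 genes were not. Between LM9 and LM1, *Itgav* lost the call in 7 of 18 alternatives, *Dag1*, *Itga2b* and *Itgb7* in 6 each and *Lama5* in 4.

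With the replicate number as a replicate block, 16, 16, 12 and 6 genes were called in the 4 comparisons, beside 5234, 4204, 5078 and 2295 of all genes. The numbers were not taken as pairs, since deviations of same-numbered tumours from their group means correlated at −0.117 to 0.162. Of the 9 tumours, 1 correlated best with its own number in both other models. The block ended the calls of *Agrn*, *Itgb4* and *Itgb7* against HR1 and of *Dag1* and *Itgav* between LM9 and LM1.

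At this depth 3 counts are 0.0669 CPM in LM9, so the levels of *Itgb8* there are limits, and the LM9 levels of *Itgb3*, *Lama4* and *Nid2* rest on few counts. With 3 tumours a model, most changes of a call above came from leaving out 1 tumour.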
